A study of Mus musculus with 2 samples.

Results

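The endoplasmic reticulum (ER) translocation and vesicle export genes are 50 genes that carry newly made proteins into the ER and out of it again. They were listed by function and not by their values, though earlier results of these data were known. Each was taken from the probes whose transcript identifier maps to its symbol. All 50 were measured, among 16339 genes measured in all. They fall into 8 groups, which are the translocon, the translocon-associated protein (TRAP) complex, the signal recognition particle (SRP) with its receptor, the signal peptidase, the oligosaccharyltransferase, the COPII coat, the COPI coat, and the cargo and retrieval receptors. The arrays compared the liver of fasted male mice with that of fasted male mice upon feeding. Each group is 1 pool of total RNA from the livers of 3 mice, read in 1 colour on 1 array of the Agilent whole mouse genome design. The fast lasted 14 to 16 h overnight. The labels describe the second group both as given food after the fast and as fed ad libitum, so the time since its last meal is not settled. The labels name no transgene and no drug for either group, and the methods describe the study's wild-type animals as young adult C57BL/6J mice on chow.

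Proteins that the hepatocyte secretes, such as albumin, clotting factors and apolipoproteins, are made on ribosomes bound to the ER. The SRP recognises the signal peptide as it leaves the ribosome and brings the ribosome to its receptor, the Sec61 channel takes the chain through the membrane, the signal peptidase removes the signal peptide and the oligosaccharyltransferase adds sugar chains to asparagine. Folded cargo is packed into COPII vesicles that leave for the Golgi, and COPI vesicles bring escaped ER proteins and cargo receptors back.

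Since each group has only 1 array, no replicate could check a difference, and differences are given with no test. The only error that could be measured is that of probes printed repeatedly on each array. The SD of a single spot's log2 difference between the arrays was 0.06 for the brightest of 3 equal classes of genes by signal, 0.08 for the middle class and 0.33 for the dimmest class. This spread covers the measurement on the array and not the mice. Of the 50 genes, 43 lay in the brightest class (5447 genes in all), 6 in the middle class and 1 in the dimmest class, and 49 were well above background on both arrays. The arrays lay at different places of one slide, no spot was saturated, and the share of spots well above background was 63.1% on the fasting array and 72.3% on the feeding array. Processed signals are given below as they were deposited, before normalization, while differences are feeding minus fasting on the log2 scale after quantile normalization. For this reason a difference can depart from the ratio of the printed signals, and signals of different probes are not set against each other as levels.

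The translocation and export genes were, on the whole, slightly higher upon feeding. The difference was above 0 for 39 of the 50 genes and below 0 for 11, where 47.7% of all genes measured and 51.8% of the brightest class were above 0. Their median difference was 0.28 on the log2 scale, beside 0 for all genes and 0.01 for the brightest class, which was added as a background after the data were seen. Few of them differed by much. At 1.5-fold, 9 genes were higher and 1 was lower, where 10.5% of all genes were that much higher and 10.6% that much lower (8.61% and 8.72% of the brightest class). At the 2-fold threshold of the study's methods, 2 genes were higher, Srprb and Sec23b, and none was lower, where 3.29% of all genes were higher and 4.61% lower. The count 2-fold higher is thus near the background, the count 1.5-fold higher somewhat over it and the counts lower under it, and most of the differences above 0 were small.

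**Figure D1:**
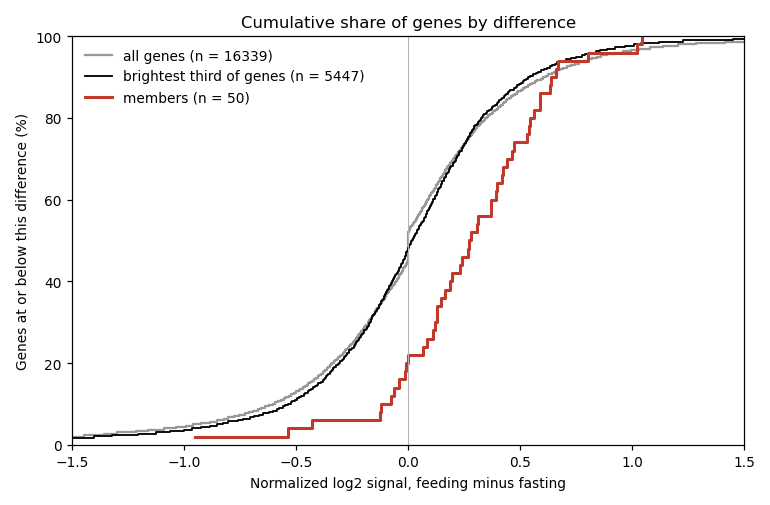
Cumulative share of genes (vertical axis, percent) at or below a given difference in normalized log2 signal, feeding minus fasting (horizontal axis), for all 16339 genes (grey), the 5447 genes of the brightest class (black) and the 50 translocation and export genes (red). The red curve lies to the right over most of its course, with 11 of 50 genes below 0; the step of the grey curve at 0 holds genes not well above background on 1 array whose bound is no change.

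The size of this shift depends on the scaling of the arrays, and its direction does not. The median difference of the 50 genes was 0.36 with each array scaled by its 75th percentile and 0.48 with each scaled by its median, where the median of all genes was 0 and 0.09. With scaling by the median 18 of the 50 were past 1.5-fold on the higher side, and 14.6% of all genes were then that much higher and 8.65% lower. The brightest class, which holds 43 of the 50, was not worked out as a background for these scalings. The larger shift and count may thus be shared by other bright genes. Over the main setting and 7 alternatives, 38 of the 50 genes were above 0 in each that measured them (Kdelr3 was left out by the filter on both arrays), 3 were below 0 in each (Kdelr1, Sec23a and Ssr2), and the sign of 9 depended on the setting. Those 9 were Copa, Rpn2, Sec24d, Sec62, Srp54a, Srpr, Stt3a, Tmed10 and Tmed2, and no direction is read from them. The filter on both arrays, no filter and no bound left the value of every gene they measured unchanged. Only the scalings, normexp and the averaging over probes could therefore change a sign.

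**Figure D2:**
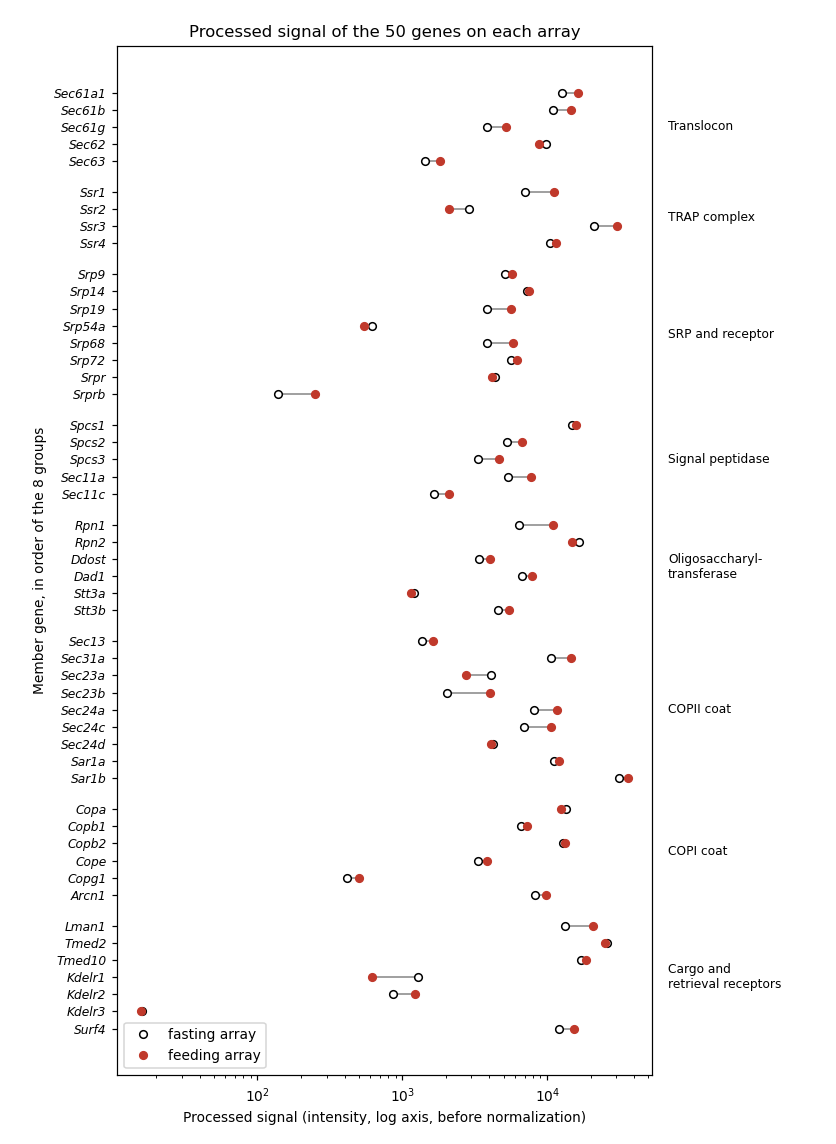
Processed signal (horizontal axis, intensity on a log axis, before normalization) of each of the 50 genes on the fasting array (open circles) and the feeding array (red circles), in order of the 8 groups. Most red circles lie to the right of the open ones, the clearest exceptions being Kdelr1, Sec23a and Ssr2, and Kdelr3 alone lies near background on both arrays.

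Of the translocon genes, 4 of 5 were higher by similar amounts and Sec62 was not. Sec61a1, Sec61b and Sec61g, which encode the subunits of the Sec61 channel, were each higher by similar amounts. Sec61a1, the pore-forming subunit, had a processed signal of 12578 upon fasting and 16458 upon feeding (0.42). Sec61g had 3866 and 5236, with the largest difference of the group (0.46). The feeding array was the higher one for all subunits of the channel, and their differences lay within 0.05 of each other, which is less than the SD of a single spot. Sec61b had signals of 10904 and 14715 on its brighter probe (0.44), while a dimmer probe for the same transcript gave 0.01. Sec63, which works with the luminal chaperone BiP in post-translational translocation, was 1.31-fold higher (0.39). Its probe was printed 10 times on each array, with signals from 1372 to 1536 (median 1421) upon fasting and from 1642 to 2002 (median 1806) upon feeding. All 10 feeding spots were above every fasting spot, and a second Sec63 probe gave 0.39 as well. Sec62, the partner of Sec63, had signals of 9779 and 8847, the smallest difference of the group (-0.12), and was below 0 on both of its probes, but its sign changed with scaling by the median.

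In the TRAP complex, which sits beside the channel and helps some signal peptides to open it, subunits went in different directions. Ssr1 had signals of 7068 and 11179 and was 1.59-fold higher (0.67), and both of its other probes were higher too, by 0.69 and 0.89. Ssr3 had signals of 20938 and 30586 and was 1.5-fold higher (0.59), or 0.45 on its second probe. Ssr2 had 2884 and 2085, and was 1.35-fold lower on its single probe (-0.43). The fasting array was thus the higher one for Ssr2 by several times the SD of a single spot, while the feeding array was the higher one for Ssr1 and Ssr3. Ssr4 had signals of 10492 and 11572, the smallest difference of the complex (0.14).

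Of the SRP and its receptor, the beta subunit of the receptor stood out. Srprb, which anchors the receptor in the ER membrane, had signals of 137.8 and 249.6 and was 2.06-fold higher (1.04), and 2.86% of all genes were higher by more. A second probe gave 40.8 and 78.2 (1.17). Both probes are dim, and the difference was under 2-fold with the normexp background correction (0.63) and with scaling by the 75th percentile (0.97). Srpr, the alpha subunit that binds the SRP, had signals of 4385 and 4149 (-0.04), so the subunits of this receptor did not differ alike. Srp68, a protein of the particle that binds its RNA, had 3832 and 5849 and was 1.55-fold higher (0.63). Srp72, its partner in the particle, was 1.14-fold higher (0.19). Srp19, needed for assembly of the particle, was 1.47-fold higher (0.56), and 0.63 on its other probe. The proteins of the Alu domain, Srp9 (0.20) and Srp14 (0.09), were among the smaller differences. Srp14 was printed 10 times, with spots from 6888 to 7753 (median 7302) upon fasting and from 6989 to 8165 (median 7465) upon feeding. The ranges of the Srp14 spots overlapped, with 2 of the 10 feeding spots above every fasting spot. Srp54a, the subunit that binds the signal peptide, had signals of 622.7 and 543.3, and its probes differed (-0.07 and 0.52); mice carry near-identical copies of this gene, among them Srp54c (0.37), so the value may not be that of Srp54a alone.

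The signal peptidase genes were higher without exception in every setting tried, by small amounts. Sec11a, a catalytic subunit, had signals of 5404 and 7724 and was 1.46-fold higher (0.54), or 0.37 on its second probe. Its paralog Sec11c, the other catalytic subunit, was 1.32-fold higher (0.40), on signals of 1652 and 2111. Spcs3 was 1.44-fold higher (0.53) and Spcs2 1.29-fold (0.37), each with a second probe close by (0.61 and 0.41). Spcs1 had the smallest difference, with signals of 14847 and 15815 (0.11). In the main setting none of the 5 genes was past 1.5-fold. With scaling by the 75th percentile Sec11a (0.62) and Spcs3 (0.60) were past it, and with scaling by the median Sec11c (0.59) as well.

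Among the oligosaccharyltransferase genes, Rpn1 differed from the rest. Rpn1, which encodes ribophorin I and presents substrates to the enzyme, had signals of 6360 and 11017 and was 1.75-fold higher upon feeding (0.80), and 5.62% of all genes were higher by more. Rpn2, ribophorin II, had 16479 and 14804 (-0.13), a sign that depended on the scaling. Ddost and Dad1, further noncatalytic subunits, were higher by 0.27 each. The catalytic subunits define forms of the enzyme that act during translocation (Stt3a) and after it (Stt3b). Stt3a had signals of 1203 and 1140, the smallest difference of the group (-0.01). Stt3b had 4556 and 5481 (0.31), a gap of 0.32 to Stt3a with an SD of 0.10 from replicate spots, but its second probe gave only 0.05.

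The COPII coat held a contrast between paralogs. Sec23a and Sec23b encode alternative forms of the inner coat subunit that activates the GTPase Sar1. Sec23b had signals of 2020 and 4005 and was 2.03-fold higher (1.02). Sec23a had 4097 and 2771 and was 1.45-fold lower (-0.54). The forms thus went in opposite directions, with 1.56 on the log2 scale between their differences, where the replicate spots give an SD of 0.09 for such a contrast. Each rests on 1 probe. Over the settings Sec23b stayed between 0.95 and 1.22, being under 2-fold with the normexp correction, and Sec23a between -0.54 and -0.33. Sec24 proteins select the cargo. Sec24c had signals of 6887 and 10620 and was 1.55-fold higher (0.64). Sec24a was 1.45-fold higher (0.54) on its brightest probe and 0.16 and 0.17 on its dimmer probes. Sec24d had 4214 and 4119, the smallest difference of the coat (-0.00). The Sec24 forms therefore did not differ alike. The outer coat genes Sec31a (10617 and 14611, 0.47) and Sec13 (1367 and 1631, 0.31) were higher. Of the GTPase genes, Sar1b, the form needed for chylomicron and lipoprotein export, was higher by 0.24 and Sar1a by 0.12, and the gap between them, 0.12, was close to the SD of 0.09.

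The COPI coat differed less. None of its 6 genes was past 1.5-fold, and the group's median was 0.20. Copg1, the gamma subunit, had signals of 415.0 and 500.4, the largest difference (0.42), and 0.21 on a dim second probe. Arcn1, the delta subunit, was higher by 0.28 on its brighter probe and lower by its dimmer one (-0.18). Cope (0.23), Copb1 (0.16) and Copb2 (0.07) followed. Copa, the alpha subunit, had 13442 and 12538 (-0.08), and its 2 probes gave like values, with a sign that depended on the scaling.

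The receptors that load export vesicles and retrieve ER proteins were divided, with a median of 0.13, and held the gene furthest below 0 of all 50 beside several above 0. Lman1, the ERGIC-53 lectin that exports clotting factors V and VIII, had signals of 13263 and 20637 and was 1.58-fold higher (0.66), and 0.90 on its other probe. Surf4, an export receptor for lipoproteins and other soluble cargo, was 1.29-fold higher (0.37). Kdelr1, Kdelr2 and Kdelr3 encode the receptors that recognise the KDEL tail of escaped ER chaperones and send them back. Kdelr1 had signals of 1290 and 622.3 and was 1.93-fold lower (-0.95), and 5.10% of all genes were lower by more. A second Kdelr1 probe had 782.8 and 351.1 (-1.03), so it was lower by about the same amount on both probes. Kdelr2 had 857.2 and 1216 and was 1.5-fold higher (0.59). The gap between Kdelr2 and Kdelr1 was 1.54, with an SD of 0.11 from replicate spots. Kdelr3 was dim, with signals of 16.0 and 15.8, and not well above background upon fasting, so its difference (0.13) rests on a signal near background. It is smaller than the SD of 0.33 of spots this dim and was 0.01 with the normexp correction, and no direction is read from it. The p24 family members, which cycle between the ER and the Golgi with cargo, were little different, with signals of 25934 and 25211 for Tmed2 (-0.01) and of 17240 and 18611 for Tmed10 (0.13). Their dimmer probes gave -0.61 for Tmed2 and -0.18 for Tmed10, and the sign of both genes depended on the setting.

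**Figure D3:**
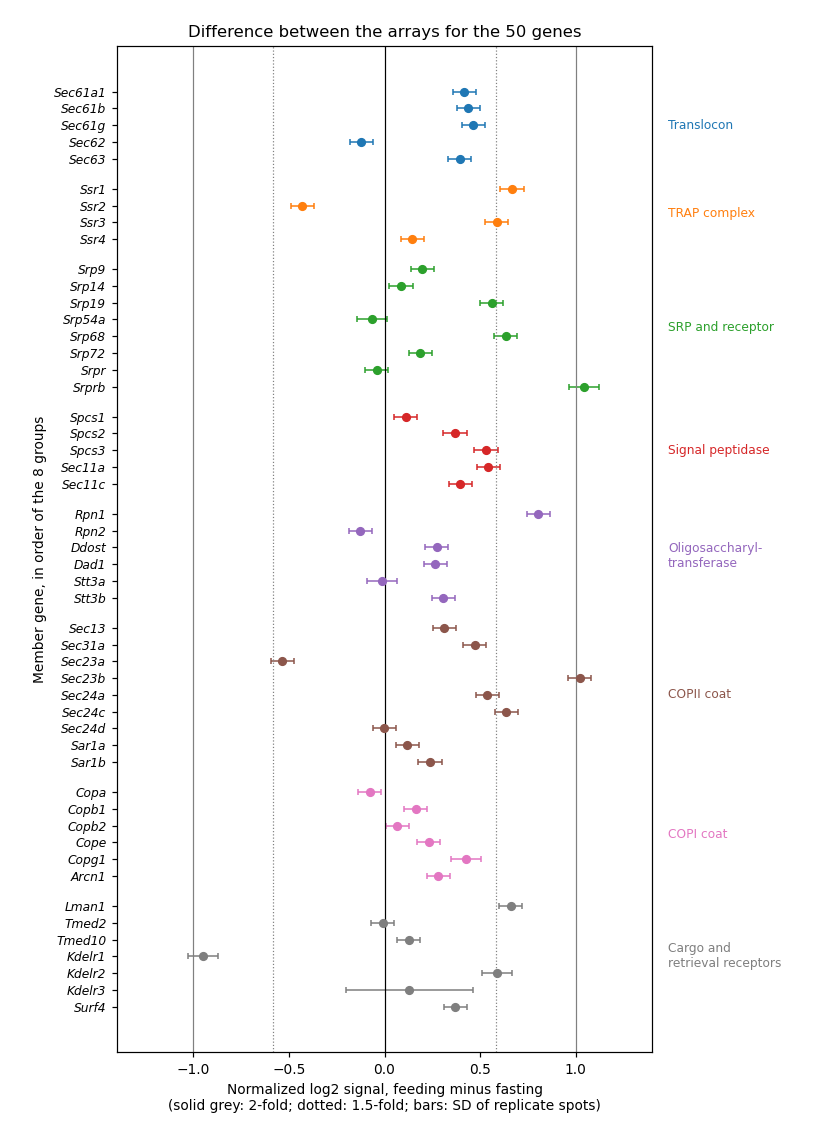
Difference in normalized log2 signal, feeding minus fasting (horizontal axis), of the 50 genes in their 8 groups. Bars are the SD of replicate spots of like signal, which leaves out differences between mice, and grey lines mark 2-fold (solid) and 1.5-fold (dotted); Srprb and Sec23b lie past 2-fold, Kdelr1 lies just inside it on the other side at -0.95, and the bar of Kdelr3, whose signal is near background, crosses 0.

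More than 1 probe was measured for 24 of the 50 genes, which gives a further reading of the same RNA pools. All probes had the same sign for 21 of them and differed in sign for 3, Arcn1, Srp54a and Tmed10. Of the 26 probes not used for a gene's value, 20 were above 0, and their median was 0.29. The 0.28 given above covers all 50 genes, many of them without a second probe, so these medians are not a like comparison. The distance between the lowest and the highest probe of a gene had a median of 0.18, several times the 0.06 of replicate spots, and reached 0.60 for Tmed2. A difference of 0.2 or so on a single probe is therefore within what another probe of the same gene can change.

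**Figure D4:**
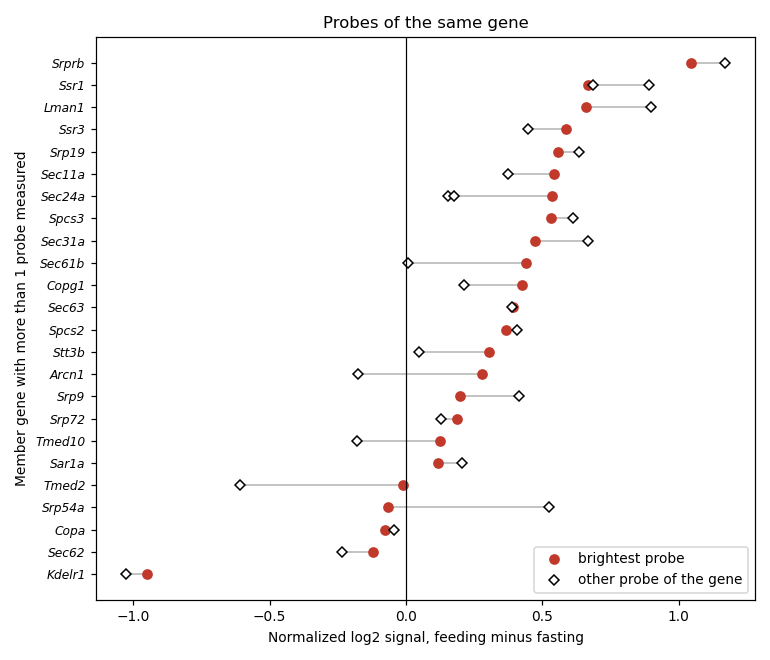
Differences of all probes measured for the 24 genes with more than 1 (horizontal axis, normalized log2 signal, feeding minus fasting), with the brightest probe, used for the gene, in red and the others as open diamonds. Probes of Srprb, Ssr1, Lman1 and Kdelr1 lie on one side of 0 and far from it, while those of Arcn1, Srp54a and Tmed10 lie on both sides.

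The rest of the early secretory pathway, on a list of 71 further genes of which 67 were measured, went the same way to a smaller degree. Their median was 0.17, with 48 above 0, 10 at least 1.5-fold higher, not far from the 10.5% of all genes, and none that much lower. Tmed3, a p24 family member, had signals of 3039 and 6116 and was 2.05-fold higher (1.04). Arfgap3 (0.90) and Arfgap1 (0.89), which switch off the GTPase of the COPI coat, Tmed9 (0.86), Preb (0.85), the exchange factor that loads Sar1, and Ostc (0.81), a subunit of the oligosaccharyltransferase, came next. The p24 family members of this list differed among themselves, from -0.39 for Tmed7, -0.23 for Tmed5, -0.17 for Tmed4 and 0.14 for Tmed1 to the values of Tmed9 and Tmed3. Of 17 genes of the GET and EMC pathways, which insert proteins into the ER membrane, 16 were above 0, with a median of 0.26. Past 1.5-fold were Wrb (0.96, on signals of 45.3 and 75.6), Emc1 (0.66) and Ubl4a (0.65), and on the lower side Asna1 (-0.64), the ATPase that brings tail-anchored proteins to the receptor of which Wrb is a part. Among 11 regulators of secretory capacity, Xbp1, a transcription factor that raises many of the genes described here, had signals of 20041 and 44976 and was 2.29-fold higher (1.19), and Creb3l2 was 1.65-fold higher (0.72). The median of that list was 0.02, and 5 of its genes were below 0. The part of these regulators in the differences above was not tested.

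**Figure D5:**
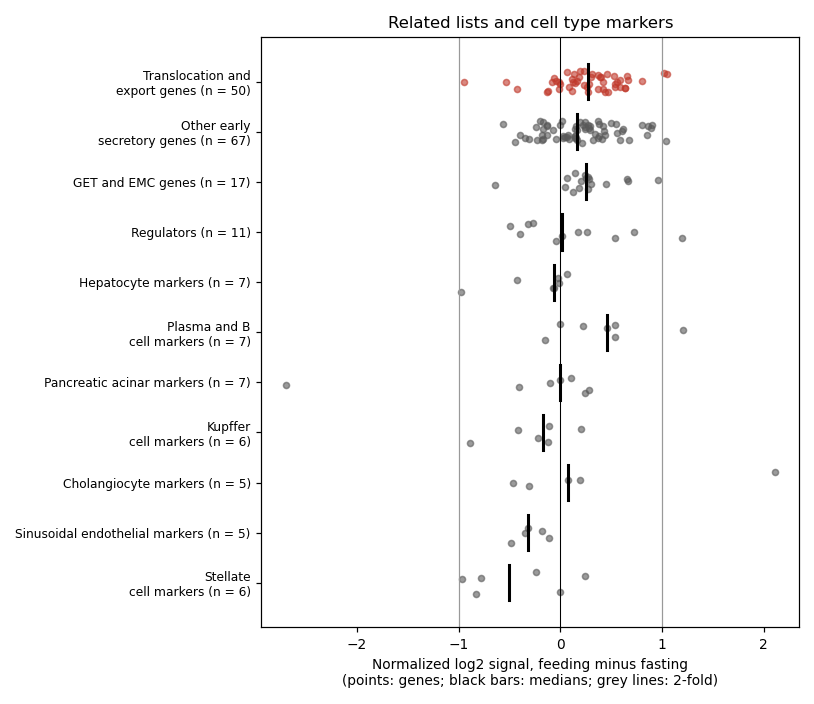
Difference in normalized log2 signal, feeding minus fasting (horizontal axis), for each gene of the translocation and export list (red), of related lists and of cell type markers (grey), with medians as black bars and 2-fold as grey lines. Medians of the translocation and export genes (0.28), other early secretory genes (0.17) and GET and EMC genes (0.26) lie above 0. Medians of the marker lists run from -0.51 (stellate cell) to 0.46 (plasma and B cell), with -0.07 for the hepatocyte markers.

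In whole liver, fewer cells of a type and less RNA per cell cannot be told apart. The hepatocyte markers were all well above background on both arrays, with signals of 159091 and 141790 for Alb, and 6 of 7 were below 0, with a median of -0.07. The largest differences of this list were those of Tat, 1.96-fold lower (-0.97), and Hnf4a, 1.34-fold lower (-0.43). Other cell types that could bring secretory genes were read from their markers, whose summed signals compare the arrays for 1 list and say nothing of the amount of a cell type. Of 7 plasma and B cell markers 5 were above 0 (median 0.46), on a summed signal of 3259 upon fasting and 3729 upon feeding. Among them Jchain had signals of 169.1 and 200.7, and Sdc1, which hepatocytes also express, 2772 and 3163. Ms4a1, in the dimmest class, had 18.6 and 37.6, the largest difference of the list (1.21). Mzb1, also in the dimmest class, was below 0, with 80.5 and 62.2 (-0.15). Of 7 pancreatic acinar markers measured 3 were above and 3 below 0, with summed signals of 4192 and 3689. Most of both sums came from Amy2a5, with signals of 3632 and 3302. Cela2a, in the dimmest class, had 52.7 and 7.23 and was 6.49-fold lower (-2.70). Cpa1 had 13.4 and 8.37, but it was not well above background upon fasting and its bound is no change. Of the nonparenchymal lists, 5 of 6 Kupffer cell markers, 5 of 5 sinusoidal endothelial markers and 4 of 6 stellate cell markers were below 0. Their medians were -0.17, -0.31 and -0.51. The summed signals were 48957 and 38366, 40043 and 30926, and 55019 and 38853 upon fasting and upon feeding. Adgre1 of the Kupffer list (-0.89) and the stellate markers Reln (-0.97), Col1a1 (-0.83) and Col3a1 (-0.78) were at least 1.5-fold lower. No marker of these lists was that much higher. For 5 cholangiocyte markers the sums were 2825 and 3320, and the median was 0.08. Of these, Sox9 was 4.31-fold higher (398.0 and 1600.0, 2.11), while Spp1 (-0.46) and Krt19 (-0.31) were below 0. The part of these cell types in the differences above was not tested.

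The promoters were searched for sequences that the ER stress response uses. They were taken from RefSeq on GRCm38.p6, from 250 bases before to 50 bases after each start, and 40 of the 50 genes were found there. The ER stress response element, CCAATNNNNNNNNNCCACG, and its second form, ATTGGNCCACG, were searched on both strands and were in none of the 40, beside 0.137% and 0.0444% of 27025 genes. The element TGACGTGG, which XBP1 and ATF6 can bind and whose other strand begins with the CCACG of the other motifs, was in 5 of 40 (12.5%), beside 0.714% of all genes. The promoters of 4 of these genes, whose match begins before the gene's start, are shown on the strand of the gene, with the match in capitals. Each runs from 30 bases before the match to at most the gene's start. Where the match ends beyond the start, the sequence runs to the end of the match.
Sec24d (chr3:123267440-123267495, + strand): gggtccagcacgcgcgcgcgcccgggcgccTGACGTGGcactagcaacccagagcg
Copb1 (chr7:114254681-114254738, - strand): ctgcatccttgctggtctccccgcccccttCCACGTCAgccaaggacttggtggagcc
Copb2 (chr9:98563694-98563731, + strand): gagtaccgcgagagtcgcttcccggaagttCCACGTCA
Kdelr3 (chr15:79516348-79516407, + strand): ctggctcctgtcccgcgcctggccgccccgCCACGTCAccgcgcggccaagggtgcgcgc
The differences of these 4 genes were -0.00 for Sec24d, 0.16 for Copb1, 0.07 for Copb2 and 0.13 for Kdelr3, the last within the spread of dim spots. Srprb and Sec23b, the genes past 2-fold, were not among the 4 genes shown. This does not say whether they carry the element, since only 4 of the 5 matches are shown and 10 of the 50 genes had no promoter to search.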

How the data were processed

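Each array held the pooled liver RNA of 3 mice of 1 group. The deposited values are intensities per spot, which the authors read from 1-colour Agilent arrays with Feature Extraction 11.0.1.1 and which are corrected for background within the array but not normalized between arrays. The deposited value table equals the mean local background at all 44397 spots (within 1e-06) and was not used as expression.

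Control and outlier spots were left out, spots of 1 probe were averaged on the log2 scale, and 39402 probes were quantile normalized (Python 3.11.15). Transcript identifiers gave 27212 probes a GRCm38.p6 gene symbol. The brightest probe on average stood for a gene, if well above background on at least 1 array. If it was so on 1 array only (1828 genes), the difference is a bound, itself with the error of a dim spot: the dim side was set to the lowest value well above background, or to the measured value if higher. Differences were called at 2-fold, the threshold of the study's methods, and at 1.5-fold, with no test. The spread came from probes with at least 8 spots. The settings tried besides were scaling to the 75th percentile or the median, normexp on median signals with an offset of 50 (limma 3.58.1, R 4.3.3), averaging over a gene's probes, a filter on both arrays or none, and no bound, and for the counts a 3-fold threshold and probes in place of genes. The brightest genes as a background were added after the data were seen. The procedure was tested on simulated data with a constant shift between the arrays and less spread for dim probes than the replicate spots showed. That test did not reach the rule for the bound.

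The 50 genes, their groups and the other lists were chosen from general knowledge with earlier results of these data known. Every one of the 50 is named. Of each other pathway list, at most 6 genes past 1.5-fold with the largest differences are named. Markers, Srp54c and further Tmed genes were named after their values were seen. A further promoter sequence is not reported here.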

Additional observations from a re-analysis of the deposited data

How the results depend on the processing

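No paired analysis was possible because each group has 1 array, and none could be left out. The deposited value table, planned as an alternative, was not run, since it holds the local background. The median of the 50 genes and of each group stayed above 0 in every setting, and the cause of the shifts was not tested. The filters and the lack of a bound left each measured gene's value unchanged, so they add little to this. Scaling to the 75th percentile gave medians of 0.36 for the 50 genes, 0.50 for the translocon, 0.45 for TRAP, 0.27 for SRP, 0.46 for the signal peptidase, 0.35 for the oligosaccharyltransferase, 0.28 for COPI and 0.22 for the cargo receptors, with 1 gene 2-fold higher, Sec23b, and Srprb at 0.97. Scaling to the median gave 0.48, 0.62, 0.58, 0.40, 0.59, 0.47, 0.40 and 0.35 in the same order and 0.49 for COPII, with 18 genes 1.5-fold higher. With normexp the oligosaccharyltransferase had a median of 0.19 and the signal peptidase 0.47, and 0 genes were 2-fold higher, with Srprb at 0.63 and Sec23b at 0.95. Averaging over a gene's probes gave 0.12 for COPI and 0.27 for SRP, and the filter on both arrays 0.25 for the cargo receptors, from which it removed Kdelr3. At 3-fold 0 genes were higher, and with probes in place of genes 1 probe, of Kdelr1, was 2-fold lower. Of the 10 genes past 1.5-fold, 7 were so in every setting and Srp68, Ssr3 and Kdelr2 were not. Signal over background limits Kdelr3 and the dim second probes most.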
